A study of Mus musculus with 19 samples.

Results

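The 10 genes described here are 3 Wnt ligand genes (Wnt3, Wnt8a, Wnt9a), 3 genes of the DNA-binding TCF/LEF factors (Tcf7, Tcf7l1, Lef1) and 4 genes known as targets of the pathway (Axin2, Nkd1, Sp5, Cdx1). They were taken as a list of gene names, and each value is the sum of TPM, a transcript's length-normalised share of its library, over the annotated transcripts of the gene. They are 10 of 54119 genes in the summed table, and all 10 passed the filter of at least 1 TPM in at least 3 of 19 libraries. Only Axin2 and Tcf7 reached 1 TPM in all 19 libraries. Tcf7l1 reached it in 17, Wnt3 and Wnt9a in 9 each, Sp5 in 8, Lef1 in 7, Cdx1 in 5, and Wnt8a and Nkd1 in 4 each. Wnt3, Wnt9a, Wnt8a and Nkd1 passed through EpiLC libraries alone, Cdx1 through mESC libraries alone, and Sp5 through 7 mESC libraries and 1 EpiLC library, so differences between states were favoured for them. Wnt8a and Nkd1 passed through the 3 XY EpiLC libraries and mutant #3, Lef1 through the 6 XY libraries and mutant #3, and Sp5 and Cdx1 in part through the 3 XY mESC libraries, so differences between XX and XY were favoured for these 5. Of the 8 libraries of Sp5, 4 were mutant mESC and none was XX, so a higher level in the mutants than in XX was favoured as well. The counts of called genes below are descriptions within that limit.

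RNA was sequenced from mouse embryonic stem cells (mESC), which resemble the naive early epiblast, and from epiblast-like cells (EpiLC), a culture model of the epiblast after implantation, to ask whether TET3, an enzyme that oxidises 5-methylcytosine, is needed for that step. XX wild-type cells were of the LF2 line (3 mESC and 3 EpiLC libraries), and Tet3-/- cells were also XX and LF2 (4 mESC libraries, mutants #1 to #4, and 3 EpiLC libraries, mutants #1, #3 and #4). XY wild-type cells were of the E14 line (3 mESC and 3 EpiLC libraries), so sex and line coincide and cannot be told apart. All mESC were grown in N2B27 with LIF and inhibitors of GSK3 and of MEK1/2, and EpiLC were fed with FGF5 and Activin A without LIF for 5 days, per the labels' protocols, which do not say whether the inhibitors were kept. The groups were defined here as mESC with the GSK3 inhibitor and EpiLC without it. On that definition state and inhibitor coincide and cannot be told apart. The labels do not say whether replicates were separate cultures or whether the mutants were separate clones, so p-values measure the spread between these libraries. In bulk RNA, fewer cells of a type and less RNA per cell cannot be told apart.

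Wnt proteins are secreted and bind Frizzled receptors with LRP5 or LRP6. Without a signal, a destruction complex of AXIN, APC, CK1 and GSK3 marks beta-catenin for degradation. Wnt signalling, or an inhibitor of GSK3, stabilises beta-catenin, which enters the nucleus and acts with TCF/LEF factors. In mESC the factor TCF7L1 represses genes of naive pluripotency and beta-catenin relieves that repression. In the embryo Wnt3 is needed for the primitive streak. AXIN2 is a negative-feedback scaffold of the destruction complex, NKD1 inhibits Dishevelled, SP5 is a zinc-finger transcription factor induced by Wnt signalling, and CDX1 is a homeobox factor of posterior patterning.

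TCF/LEF factors bind DNA at the core CTTTGA or CTTTGT. Both hexamers were searched on both strands in the 250 bases before each RefSeq start site (GRCm38.p6). Of the 10 genes, 8 had a RefSeq window, 12 windows in all, and 3 genes held a hexamer (Sp5, Tcf7l1 and Lef1). Sp5, Axin2 and Tcf7l1 are shown because Sp5 and Axin2 were low in XX and high in XY mESC, while Tcf7l1 encodes the repressor of the family. Capitals mark every match on the printed strand, where TCAAAG and ACAAAG are matches on the opposite strand. The windows are chr2:70474673-70474922 (plus strand) for Sp5, chr11:108920099-108920348 (plus strand) for Axin2 and chr6:72789046-72789295 (minus strand) for Tcf7l1.
Sp5: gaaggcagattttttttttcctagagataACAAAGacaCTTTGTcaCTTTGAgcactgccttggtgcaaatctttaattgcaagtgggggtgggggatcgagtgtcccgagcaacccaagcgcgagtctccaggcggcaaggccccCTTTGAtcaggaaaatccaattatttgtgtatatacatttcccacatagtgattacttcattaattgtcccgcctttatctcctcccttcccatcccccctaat
Axin2: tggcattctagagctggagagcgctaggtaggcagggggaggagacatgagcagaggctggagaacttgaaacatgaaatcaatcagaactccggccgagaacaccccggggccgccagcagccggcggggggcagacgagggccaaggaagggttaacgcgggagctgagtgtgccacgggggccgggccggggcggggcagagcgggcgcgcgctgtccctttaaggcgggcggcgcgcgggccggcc
Tcf7l1: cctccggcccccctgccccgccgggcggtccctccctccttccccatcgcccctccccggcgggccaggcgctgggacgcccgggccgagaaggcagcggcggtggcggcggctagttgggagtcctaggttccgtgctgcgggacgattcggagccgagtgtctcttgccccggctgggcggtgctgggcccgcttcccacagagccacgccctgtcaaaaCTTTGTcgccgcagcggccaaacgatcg
The Sp5 window held 4 matches, 2 of CTTTGA and 2 of CTTTGT, which did not overlap each other. The match nearest to the start lay 104 to 99 bases before it, and the other 3 lay between 221 and 199 bases before it. Among 32851 windows of all genes, 31 (0.0944%) held 4 or more matches and 27.6% held at least 1. The Tcf7l1 window held 1 CTTTGT, 28 to 23 bases before the start, and the Axin2 window held none. Of the 4 Lef1 windows, the fourth (chr3:131156044-131156293, plus strand) held 3 matches and the others none. A match describes these letters only and shows no binding.

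The libraries were first checked against their labels. All 12 naive markers were at 1 TPM or more in every mESC library, and all 9 formative markers were so in every EpiLC library. The summed naive level was 403 to 990 TPM in mESC and 34.6 to 131 TPM in EpiLC. Yet 11 of the 12 naive markers stayed at 1 TPM or more in every XX EpiLC library, 5 in XY and 6 in the mutants. In XX, naive Klf5 had 21.3 to 32 TPM in mESC and 20.8 to 24.2 TPM in EpiLC. Formative Otx2 had 16.3 to 22.2 TPM in XX mESC and less, 10.4 to 11.5 TPM, in XX EpiLC. The formative sum was 22.4 to 30.6 TPM in XX mESC and 56.5 to 69.3 TPM in XX EpiLC, and in XY 13.9 to 38.8 and 386 to 499 TPM. In EpiLC, Tet3 itself had a mean of 1.65 ± 0.386 TPM over the XX libraries (SD, n = 3) and 1.04 ± 0.363 TPM over the mutants (SD, n = 3), and in mESC 0.761 ± 0.269 TPM over the XX libraries (SD, n = 3) and 0.661 ± 0.174 TPM over the mutants (SD, n = 4). It was not called in either state, so the summed Tet3 level does not by itself check the genotype labels. From 11128 to 13811 genes per library reached 1 TPM, and TPM does not keep the depth, which is unknown. Protein-coding genes held 21.4% to 46.8% of TPM per library, and XY EpiLC libraries held the most. The median over all genes moved as well. Over the 14972 tested genes, the XX transition had a median log2 fold change of 0.14, the XY transition one of 0.54 and the Tet3-/- transition one of -0.13. XX minus XY had -0.19 in mESC and -0.58 in EpiLC, and Tet3-/- minus XX had 0.19 and -0.07. The difference of the Tet3-/- and XX transitions had -0.28, and that of the XX and XY transitions -0.40. Median-of-ratios scaling removed this shift. As deposited, 19.2% of genes were called higher and 12.2% lower in the XX transition, 41.1% and 9.36% in XY, and 13.6% and 21.5% in Tet3-/-. After scaling the shares were 24.5% and 25.9% in XX (50.4% in all), 26.4% and 25% in XY (51.4%), and 25.2% and 27.2% in Tet3-/- (52.4%). For XX against XY they were 6.43% and 7.73% in mESC and 5.23% and 42% in EpiLC as deposited, and 17.7% and 13.6% and 17.2% and 16.6% after scaling. Between Tet3-/- and XX mESC they were 0.494% and 0.107%, and after scaling 1.77% and 1.42% (3.19%). Between the EpiLC of these genotypes they were 0.12% and 0.955%, and after scaling 2.5% and 2.96% (5.46%). For the difference of the Tet3-/- and XX transitions no gene was higher and 0.174% were lower, and after scaling 0.247% and 0.414% (0.661%). For the difference of the XX and XY transitions they were 3.61% and 12.4%, and after scaling 10.9% and 12.8%.

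The 3 ligand genes were near 0 in all mESC and appeared in EpiLC, in different groups. Wnt3 (GRCm38 chr11:103774150-103817957, plus strand; positions of genes below are in the same build) had 0.194, 0.138 and 0.226 TPM in the 3 XX mESC libraries, 0.0143, 0.0249 and 0.00697 TPM in XY and 0.245, 0.14, 0.107 and 0.227 TPM in mutants #1 to #4. In EpiLC it had 2.8, 3.29 and 3.91 TPM in XX, 3.55, 4.75 and 4.3 TPM in XY and 4.04, 17.8 and 3.47 TPM in mutants #1, #3 and #4. Every EpiLC library was above every mESC library, the EpiLC groups overlapped, and mutant #3 stood far above the other 8 EpiLC libraries.

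Wnt8a, a ligand of the gastrulating embryo, had 0.332, 0.416 and 0.454 TPM in the XX EpiLC libraries and 3.81, 4.8 and 4.93 TPM in XY EpiLC. Mutants #1, #3 and #4 had 0.174, 12.8 and 0.293 TPM in EpiLC, and no mESC library exceeded 0.105 TPM. The XY libraries were thus all above the XX libraries, and 1 mutant was above every XY library while the other two lay below every XX library.

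Wnt9a (chr11:59306928-59333552, plus strand), also a secreted ligand, showed the reverse order between the lines. It had 4.74, 5.44 and 6.05 TPM in XX EpiLC, 1.45, 1.63 and 1.52 TPM in XY EpiLC and 6.11, 4.52 and 4.65 TPM in mutants #1, #3 and #4. No mESC library exceeded 0.186 TPM. The XX and Tet3-/- EpiLC libraries overlapped, all of them lay above the XY EpiLC libraries, and mutant #3 was the lowest of the mutants for this gene alone among the 10.

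**Figure D1:**
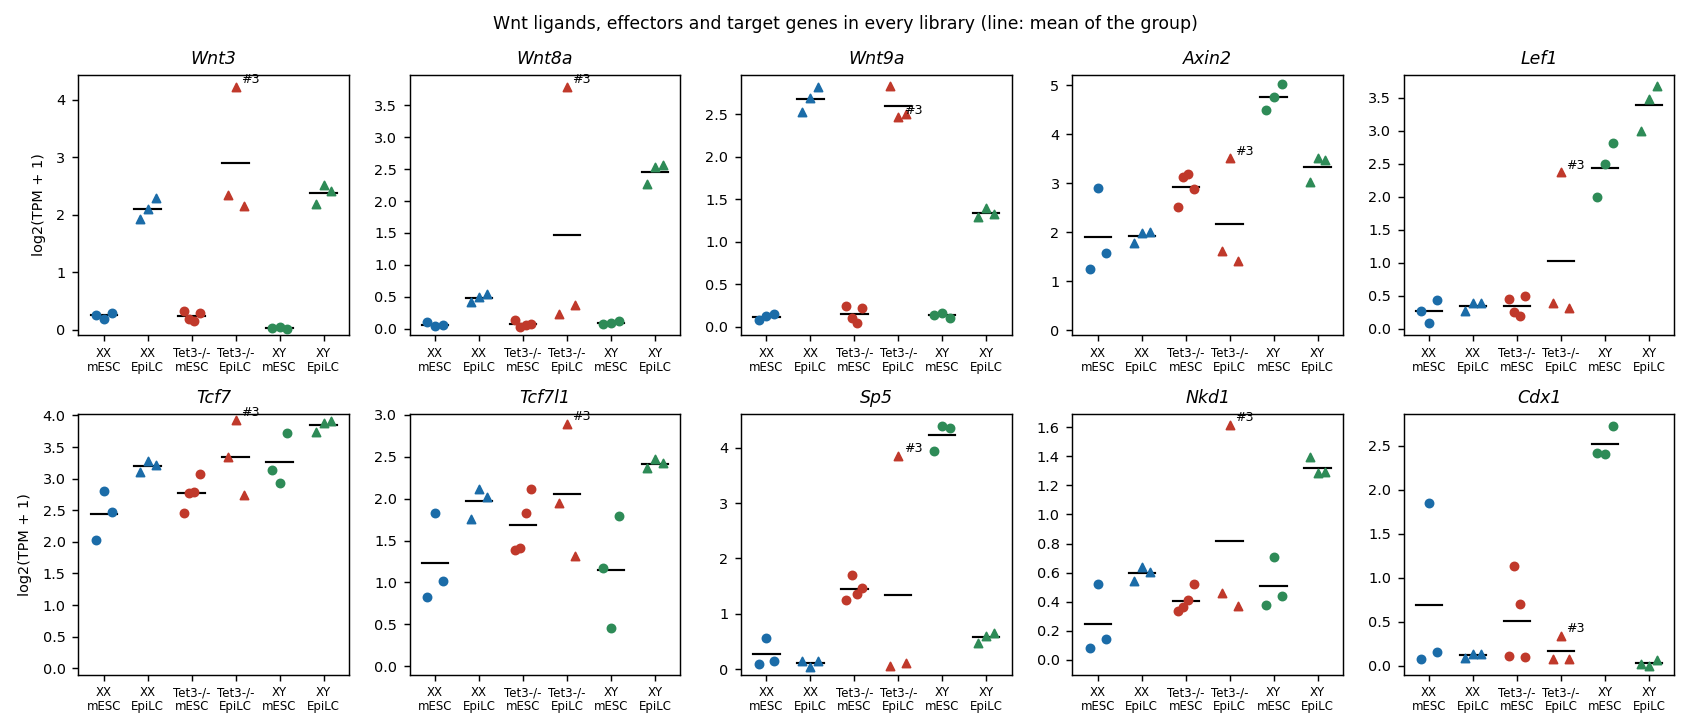
Level of each of the 10 genes in all 19 libraries, as log2(TPM + 1) on the vertical axis, by group on the horizontal axis; circles are mESC, triangles EpiLC, short lines group means, and #3 marks the EpiLC library of mutant #3. Wnt3 and Wnt9a are high in EpiLC of all 3 genotypes, Sp5, Axin2 and Cdx1 are highest in XY mESC, and mutant #3 stands above the other LF2 EpiLC libraries for every gene but Wnt9a.

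Among the factor genes, Tcf7 was the most abundant in TPM and Lef1 the most uneven. Lef1 (chr3:131110471-131224356, plus strand), whose product activates targets with beta-catenin, had 0.206, 0.0586 and 0.354 TPM in XX mESC, 0.368, 0.189, 0.144 and 0.407 TPM in the mutant mESC and 2.97, 4.65 and 6.01 TPM in XY mESC. In EpiLC it had 0.199, 0.309 and 0.302 TPM in XX, 0.306, 4.16 and 0.242 TPM in mutants #1, #3 and #4, and 6.97, 10.2 and 11.7 TPM in XY. The XY libraries were above every XX library in both states, with no overlap, and of the LF2 libraries only mutant #3 in EpiLC exceeded 1 TPM.

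Tcf7 (chr11:52252371-52283014, minus strand), which encodes TCF1, had 3.06, 5.98 and 4.57 TPM in XX mESC, 4.51, 5.81, 5.92 and 7.41 TPM in mutant mESC and 7.83, 6.64 and 12.3 TPM in XY mESC. In EpiLC the values were 7.57, 8.7 and 8.29 TPM in XX, 9.14, 14.2 and 5.65 TPM in mutants #1, #3 and #4, and 12.4, 13.7 and 14 TPM in XY. XX and XY libraries did not overlap in either state. In the order of group means, only XX EpiLC and mutant mESC were neighbours whose libraries did not overlap.

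Tcf7l1 (chr6:72626378-72789254, minus strand), the repressor gene, had 0.773, 2.55 and 1.03 TPM in XX mESC, 1.26, 0.375 and 2.47 TPM in XY mESC and 1.61, 1.66, 2.56 and 3.32 TPM in the mutants. In EpiLC it had 2.39, 3.34 and 3.07 TPM in XX, 4.14, 4.54 and 4.35 TPM in XY and 2.84, 6.42 and 1.49 TPM in mutants #1, #3 and #4. The 3 mESC groups overlapped each other, and each neighbouring pair of groups in the order of means overlapped.

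Of the target genes, Axin2 and Sp5 were highest in XY mESC by a wide margin. Axin2 (chr11:108920349-108950783, plus strand) had 21.5, 26.1 and 31.7 TPM in XY mESC, 1.37, 6.5 and 2 TPM in XX mESC and 4.7, 7.73, 8.18 and 6.37 TPM in the mutants. In EpiLC it had 7.2, 10.4 and 10.1 TPM in XY, 2.42, 2.98 and 3.01 TPM in XX and 2.06, 10.4 and 1.67 TPM in mutants #1, #3 and #4. XY libraries were above XX libraries in both states. XX mESC replicate 2 was above the other two of its group, and its Axin2 level lay within the range of the mutants.

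Sp5 (chr2:70474923-70477729, plus strand) had 14.4, 20 and 19.5 TPM in XY mESC, 1.37, 2.23, 1.56 and 1.76 TPM in the mutant mESC and 0.0707, 0.475 and 0.108 TPM in XX mESC. In EpiLC it had 0.38, 0.509 and 0.575 TPM in XY, 0.1, 0.0285 and 0.103 TPM in XX and 0.0331, 13.4 and 0.0846 TPM in mutants #1, #3 and #4. The 3 mESC groups did not overlap: XY was highest, the mutants intermediate and XX lowest. In EpiLC only mutant #3 exceeded 1 TPM, at a level just below the lowest XY mESC library.

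Cdx1 had 4.35, 4.33 and 5.63 TPM in XY mESC, 0.0545, 2.61 and 0.118 TPM in XX mESC and 0.0788, 1.2, 0.628 and 0.0726 TPM in the mutants, and it did not exceed 0.267 TPM in any EpiLC library. XX mESC replicate 2 stood well above replicates 1 and 3, yet below every XY library. Nkd1 (chr8:88521354-88594884, plus strand) stayed low, with 1.63, 1.43 and 1.44 TPM in XY EpiLC, 0.458, 0.558 and 0.52 TPM in XX EpiLC and 0.377, 2.06 and 0.293 TPM in mutants #1, #3 and #4. In mESC it ranged from 0.057 to 0.635 TPM over the 10 libraries, and the 3 groups overlapped.

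Each genotype's EpiLC were compared with its own mESC. State and medium, the GSK3 inhibitor included on the definition above, coincide in each transition and cannot be told apart. Wnt3 and Wnt9a rose in all 3 genotypes, while the targets Axin2, Sp5 and Cdx1 fell in XY, the line in which they had been high. A gene was called at an adjusted p under 0.05 in limma, with Benjamini-Hochberg adjustment over the 14972 tested genes. Fold changes are differences of log2(TPM + 1), which understate the change of genes with low TPM. The comparisons of genotypes below share groups with these, so they are not independent of each other.

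In XX, 3 of 10 genes were called, all higher, against 31.3% of all tested genes called in either direction. The median log2 fold change of the 10 was 0.38, and that of all genes 0.14. Wnt9a rose by 2.56 (SE 0.14, limma adjusted p 1.79e-10), Wnt3 by 1.86 (SE 0.34, limma adjusted p 0.000308) and Tcf7 by 0.76 (SE 0.28, limma adjusted p 0.0461). The Tcf7 call was lost without a filter on low values (limma adjusted p 0.104) and when XX mESC replicate 1 or 3 or any of the 3 XX EpiLC libraries was left out (limma adjusted p 0.0754 to 0.196). After scaling Tcf7l1 was also called (0.65, limma adjusted p 0.0322), and without XX mESC replicate 2 it was called as deposited (1.04, limma adjusted p 0.0463). Axin2 and Lef1 had log2 fold changes of 0.01 and 0.08, with 95% intervals of -0.92 to 0.94 and -0.71 to 0.87.

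In XY, 9 of 10 genes were called, 6 higher and 3 lower, against 50.5% of all tested genes. The median log2 fold change of the 10 was 0.88, and that of all genes 0.54. Wnt8a rose by 2.36 (SE 0.56, limma adjusted p 0.00192), Wnt3 by 2.35 (limma adjusted p 1.61e-05, SE 0.34) and Wnt9a by 1.21 (SE 0.14, limma adjusted p 1.04e-06). Of the factors, Tcf7l1 rose by 1.27 (SE 0.36, limma adjusted p 0.00723) and Lef1 by 0.95 (SE 0.37, limma adjusted p 0.0421), while Tcf7 was not called (0.58, limma adjusted p 0.0955). Among the targets, Sp5 fell to 0.0271 of its mean TPM in mESC, a log2 difference of -3.66 (limma adjusted p 7.55e-05, SE 0.61). On the log2 scale Cdx1 changed by -2.49 (SE 0.34, limma adjusted p 8.55e-06) and Axin2 by -1.42 (limma adjusted p 0.0127, SE 0.44). Nkd1 went the other way, with a rise of 0.81 (SE 0.23, limma adjusted p 0.00746).

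On scaled values the 3 falls in XY were as large or larger, with -3.87 for Sp5, -2.52 for Cdx1 and -2.02 for Axin2, and the rises of Lef1 and Nkd1 were no longer called (0.35 and 0.43, limma adjusted p 0.369 and 0.0706). The Lef1 call was also lost without a filter (limma adjusted p 0.0957), with a pseudocount of 0.1 (0.183), and without XY mESC replicate 1 or 2 or XY EpiLC replicate 2 or 3 (0.0803 to 0.168). The Tcf7l1 call was lost without XY mESC replicate 2, where its rise was 0.93 (limma adjusted p 0.0575). Without XY mESC replicate 3, Tcf7 was called (0.81, limma adjusted p 0.026), and after scaling its sign turned to -0.04.

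In Tet3-/-, 3 of 10 genes were called, all of them ligands and all higher, against 35.1% of all tested genes. The median log2 fold change of the 10 was 0.48, and that of all genes -0.13. Wnt3 rose by 2.67 (SE 0.32, limma adjusted p 2.15e-06), Wnt9a by 2.45 (SE 0.13, limma adjusted p 8.50e-11) and Wnt8a by 1.38 (SE 0.52, limma adjusted p 0.0476). These values rest in part on the EpiLC library of mutant #3. Without it the Wnt3 and Wnt9a rises were 2.01 and 2.51 (limma adjusted p 4.77e-09 and 2.08e-10), and Wnt8a was not called as deposited (0.22, limma adjusted p 0.128) but was on scaled values (0.33, limma adjusted p 0.00318). The median of the 10 without it was 0.0047, and that of all genes -0.37. In all, 4 of 10 were then called against 44.1% of all genes, and 2 of them fell: Sp5 changed by -1.36 (limma adjusted p 5.82e-06) and Axin2 by -1.42 (limma adjusted p 0.00272). With mutant #3 included their values were -0.10 and -0.75. Without mutant #4 instead, 6 of 10 were called, Lef1, Tcf7 and Nkd1 in addition (1.03, 0.86 and 0.63, limma adjusted p 0.0407, 0.0179 and 0.0434). The share of all genes was not taken for that setting. The Wnt8a call was lost too when any of the 4 mutant mESC libraries was left out (limma adjusted p 0.0723 to 0.0816). Tcf7 was called after scaling, with 0.72 (limma adjusted p 2.59e-05).

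**Figure D2:**
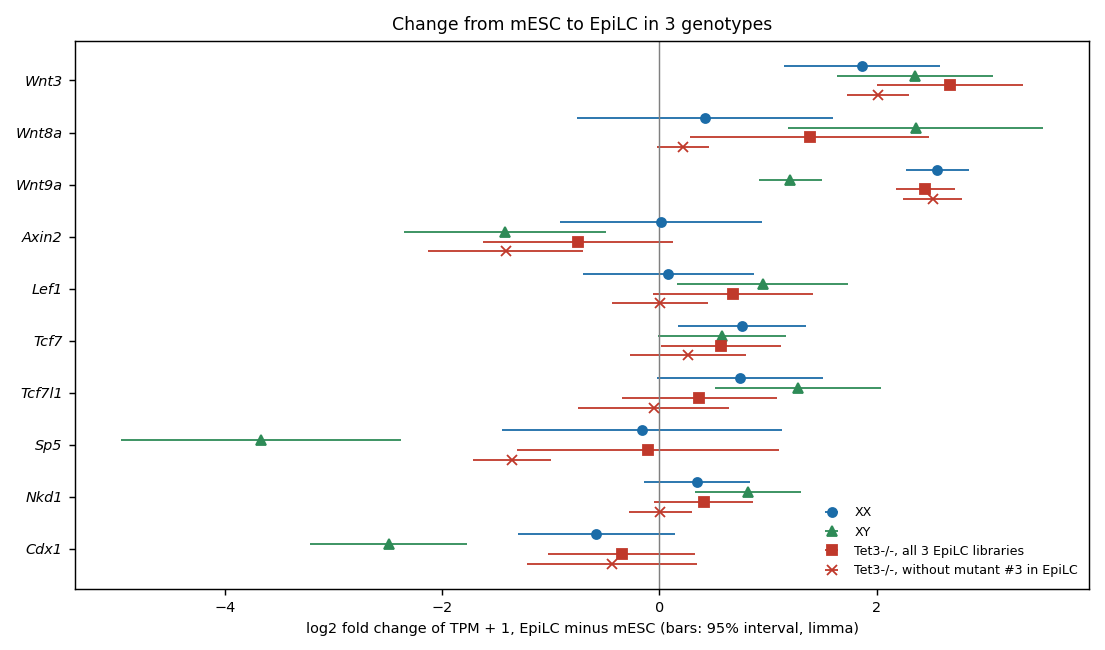
Change of the 10 genes from mESC to EpiLC, as the log2 fold change of TPM + 1 on the horizontal axis, for XX, XY and Tet3-/-, the last also without mutant #3 in EpiLC; bars are 95% intervals from limma. Wnt3 and Wnt9a lie to the right of 0 in every case, Sp5 and Cdx1 lie far to the left in XY, and leaving out mutant #3 moves Sp5 from -0.10 to -1.36.

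In mESC, 4 of 10 genes were called between XX and XY, all lower in XX, against 14.2% of all tested genes. The median log2 fold change of the 10, XX minus XY, was -0.55, and that of all genes -0.19. Sp5 was at 0.0121 of its XY mean TPM, and the difference on the log2 scale was -3.96 (SE 0.61, limma adjusted p 0.000193). Axin2 was at 0.124 of its XY mean, a difference of -2.85 (SE 0.44, limma adjusted p 0.00021). Lef1 was at 0.0454 of it, with -2.17 (SE 0.37, limma adjusted p 0.000554), and Cdx1 at 0.195, with -1.82 (SE 0.34, limma adjusted p 0.00119). For each of the 4, the libraries of the groups did not overlap, and the same held for Wnt3 and Tcf7, which were not called. The share of all tested genes without overlap was not taken, so this cannot be read against it. The ligands were near 0 in both groups, and their log2 fold changes lay between -0.03 and 0.22.

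The Cdx1 call was lost when the spread was estimated from these 2 groups alone (limma adjusted p 0.0626). Tcf7 lay just outside the threshold, with -0.83 (limma adjusted p 0.0555) and no overlap between groups, and was called after scaling (-0.61, limma adjusted p 0.000629) and without XX mESC replicate 2 or XY mESC replicate 2 (limma adjusted p 0.0229 and 0.0328). Among 12 tested target genes outside the 10, none was called higher and 5 were lower in XX (Cdx2, T, Sp8, Ccnd1 and Notum), where 6.43% of all tested genes were higher and 7.73% lower. After scaling 7 were lower, Myc and Dkk1 in addition. Of these, Cdx2, T, Sp8 and Dkk1 reached 1 TPM in no XX library of either state, so the filter favoured a lower level in XX for them. Of the mesendoderm markers, T was at 4.75, 7.64 and 7.81 TPM in XY mESC and at 0.626 TPM or less in the other mESC libraries, and the summed level of the 7 markers was 7.87 to 12.1 TPM in XY against 2.54 to 5.61 TPM in XX, where Gsc held most of it. No more than 2 of the 7 reached 1 TPM in any mESC group, and Mixl1, Mesp1, Foxa2 and Lhx1 stayed at 0.139 TPM or less in all mESC. The 6 fibroblast or feeder markers, Vim above all, summed to 34.2 to 120 TPM in XY and 9.68 to 29.6 TPM in XX. In the other direction, 7 extraembryonic endoderm markers summed to 1.45 to 8.56 TPM in XX and 0.465 to 0.701 TPM in XY, and 5 trophoblast markers to 10.7 to 20.5 TPM in XX and 5.55 to 7.92 TPM in XY. Tfap2c held most of the trophoblast sum in XX, with 8.65 to 17.3 TPM. Cdx2 of the same list went against the sum, with 2.83 to 5.9 TPM in XY and 0.0531 to 0.585 TPM in XX. The sums of 5 neural markers overlapped, at 0.652 to 2.85 TPM in XX and 1.37 to 12.9 TPM in XY. The part of such cells in the Wnt target levels was not tested.

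In EpiLC, 5 of 10 genes were called between XX and XY, 4 lower and 1 higher in XX, against 47.2% of all tested genes. The median log2 fold change of the 10 was -0.56, and that of all genes -0.58. Lef1 was lower by the most, with -3.04 (SE 0.37, limma adjusted p 8.06e-06), followed by Wnt8a with -1.97 (SE 0.56, limma adjusted p 0.0101). Axin2 was lower with -1.42 (SE 0.44, limma adjusted p 0.0168) and Nkd1 with -0.73 (limma adjusted p 0.0187, SE 0.23). Wnt9a alone was higher in XX, with 1.34 (SE 0.14, limma adjusted p 1.23e-06), or 3.53 times its XY mean TPM.

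After scaling 3 of 10 were called, Wnt9a (1.76, limma adjusted p 1.86e-06), Lef1 (-2.44, limma adjusted p 1.70e-05) and Wnt8a (-1.43, limma adjusted p 0.0382), against 33.8% of all genes. Axin2 and Nkd1 were not, with -0.78 and -0.34 (limma adjusted p 0.076 and 0.176), and rescaling over protein-coding genes gave -0.90 and -0.42. Without XX EpiLC replicate 1 both calls were lost, and that of Axin2 also without XY EpiLC replicate 2 or 3 (limma adjusted p 0.0574 to 0.0594). Tcf7 and Tcf7l1 had -0.65 and -0.45 and were not called, and their sign turned after scaling (0.03 and 0.12). The other markers differed between these groups as well: the 7 mesendoderm markers summed to 26.6 to 37.5 TPM in XY and 3.05 to 3.36 TPM in XX, with T, Eomes and Foxa2 at 1 TPM or more in every XY library and Mesp1 at 0.177 TPM or less in both. The 9 formative markers summed to 386 to 499 TPM in XY and 56.5 to 69.3 TPM in XX. Their part in the Wnt gene levels was not tested.

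**Figure D3:**
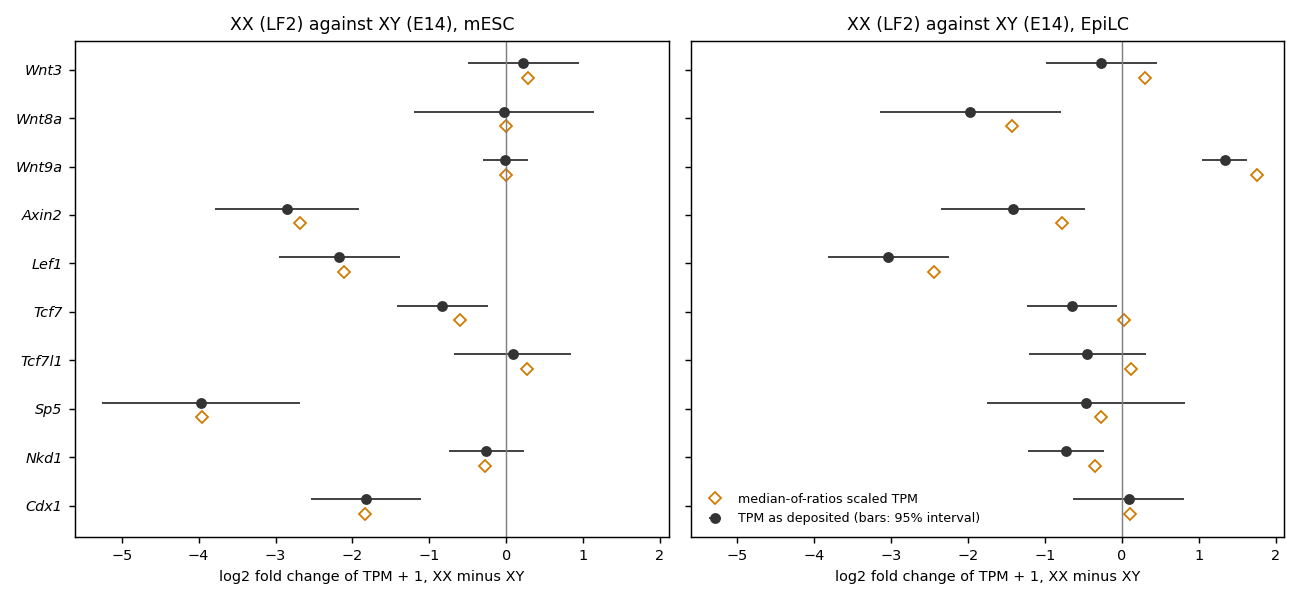
Difference between XX (LF2) and XY (E14) libraries for the 10 genes, as the log2 fold change of TPM + 1 (XX minus XY) on the horizontal axis, in mESC on the left and EpiLC on the right; filled circles with 95% intervals are TPM as deposited and open diamonds are scaled TPM. In mESC Sp5, Axin2, Lef1 and Cdx1 lie well below 0 on both scales, and in EpiLC scaling moves most genes to the right while Lef1 and Wnt8a stay below 0 and Wnt9a above it.

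The transitions of XX and XY were set against each other by the interaction in the same fit. Of the 10 genes, 3 differed, and 16% of all tested genes did: Wnt9a rose more in XX, and Sp5 and Cdx1 fell in XY and were not called in XX. By mean TPM, Sp5 and Cdx1 in XX EpiLC were at 0.354 and 0.0913 of XX mESC, with overlapping libraries. Both were low in most XX mESC libraries, where a fall is small on the log2(TPM + 1) scale. The differences of log2 fold change, XX minus XY, were 1.35 (SE 0.20, limma adjusted p 0.000128) for Wnt9a, 3.50 (SE 0.87, limma adjusted p 0.00943) for Sp5 and 1.91 (SE 0.48, limma adjusted p 0.0108) for Cdx1. The median difference over the 10 genes was -0.14, and over all genes -0.40. After scaling Axin2 (1.90, limma adjusted p 0.00636) and Tcf7 (0.64, limma adjusted p 0.00814) were called as well, against 23.7% of all genes. As deposited, Axin2 had 1.43 (limma adjusted p 0.135) and was called without XX mESC replicate 2 (1.93, limma adjusted p 0.0305). The Sp5 call was lost with a pseudocount of 0.1 (limma adjusted p 0.0708), where the difference was 4.29. Wnt8a had -1.94 (limma adjusted p 0.108), and with the spread estimated without mutant #3 in EpiLC it was called (limma adjusted p 1.83e-07).

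Tet3-/- and XX cells are of the same line, and no member was called between them in either state. In mESC, limma called 0 of 10 genes against 0.601% of all tested genes, and 1 (Axin2) had an unadjusted p under 0.05. Sp5 was higher in all 4 mutants than in all 3 XX libraries, at 7.95 times the XX mean TPM, or 1.17 (SE 0.57, limma adjusted p 0.571). Its spread in the shared fit includes mutant #3 in EpiLC, and with that library left out of the fit Sp5 was called at the same fold change (limma adjusted p 0.00176). Sp5 passed the filter in part through the 4 mutant mESC libraries and through no XX library, so this direction was favoured. Axin2 had 1.02 (SE 0.42, limma adjusted p 0.426), and its groups overlapped through XX mESC replicate 2. Intervals of the other 8 genes included 0, the widest being -1.08 to 1.11 for Wnt8a, so this design does not show that the genotypes are alike.

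In EpiLC, limma called 0 of 10 genes between Tet3-/- and XX, against 1.08% of all tested genes, and 1 (Wnt3) had an unadjusted p under 0.05. Wnt3 had 0.80 (SE 0.34, limma adjusted p 0.421) and was called after scaling (0.88, limma adjusted p 0.0243). Without mutant #3 the Wnt3 difference was 0.14 as deposited (limma adjusted p 0.556), and none of the 10 was called against 2.12% of all genes. With scaling and without mutant #3, Wnt3 and Wnt9a were called, at 0.49 and 0.36 (limma adjusted p 0.00695 and 0.0378). Wnt9a as deposited had -0.08. The 12 naive markers also differed between these libraries, with a sum of 116 to 131 TPM in XX, 34.6 and 38.5 TPM in mutants #1 and #4, and 101 TPM in mutant #3. The 9 formative markers summed to 56.5 to 69.3 TPM in XX, 66.1 and 63.3 TPM in mutants #1 and #4, and 194 TPM in mutant #3. Their part in the levels of the 10 genes was not tested.

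The transitions of Tet3-/- and XX did not differ by the test for any of the 10 genes, against 0.174% of all tested genes, and limma gave 0 of the 10 an unadjusted p under 0.05. Sp5 changed sign with 1 library: its difference, Tet3-/- minus XX, was 0.06 with all libraries and -1.20 without mutant #3 in EpiLC (limma adjusted p 0.0255), where 0.681% of all genes were called. With scaling as well it was -1.16 (limma adjusted p 0.056), and Wnt3 was then called with 0.56 (limma adjusted p 0.0405). The Sp5 level of the mutants went from 1.37 to 2.23 TPM in mESC to 0.0331 and 0.0846 TPM in mutants #1 and #4 in EpiLC.

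The EpiLC library of mutant #3 stood apart from the other 5 LF2 EpiLC libraries. It was the highest of the 6 for 9 of the 10 genes, and for 64.3% of all tested genes. On scaled TPM it was the highest for 8 of the 10, and for 32.4% of all tested genes. Sp5 had 13.4 TPM there and at most 0.103 TPM in the other 5, Wnt8a 12.8 TPM against at most 0.454 TPM, and Lef1 4.16 TPM against at most 0.309 TPM. Axin2 had 10.4 TPM against at most 3.01 TPM, Wnt3 17.8 TPM against at most 4.04 TPM, and Nkd1 2.06 TPM against at most 0.558 TPM. As deposited, genes of all 3 classes, ligands, factors and targets, were thus highest in this library, and Wnt9a was not, with 4.52 TPM against 4.65 to 6.11 TPM. Cdx1 was highest at a low level, 0.267 TPM against at most 0.0975 TPM. On scaled TPM Tcf7 was not the highest either, with 10.6 in mutant #3 and 12 in mutant #1.

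Markers of the primitive streak and its derivatives were higher there too, and so were the sums of other marker lists. The 7 mesendoderm markers summed to 142.9 TPM in mutant #3 and to 3.05 to 3.41 TPM in the other 5 libraries, and 6 of the 7 were at 1 TPM or more, while Mesp1 was at 0.214 TPM. T (brachyury), itself a Wnt target, was at 94.3 TPM against at most 1.03 TPM, and Fgf8 at 27.4 TPM against at most 0.442 TPM. Of the 14 target genes outside the 10, which include T and Mixl1 of the markers, 13 were highest in this library, and 11 of 14 on scaled TPM. Vim, which many cell types express, was at 218 TPM there against 19.6 to 45 TPM in the other 5 libraries. Of the other fibroblast or feeder markers, Pdgfra was at 1.32 TPM against 0.108 to 0.197 TPM, and Col1a1 at 0.743 TPM against 0.139 to 0.447 TPM. Col1a2, Col3a1 and Thy1 were not highest there, with 0.801, 0.237 and 0.864 TPM. As deposited, extraembryonic endoderm markers summed to 9.44 TPM against 2.94 to 4.73 TPM in the other 5 libraries, and neural markers to 12.2 against 3 to 5.9 TPM. Trophoblast markers summed to 12.7 against 3.96 to 9.52 TPM, and shared pluripotency markers to 418 against 174 to 286 TPM. The naive sum, at 101 TPM, lay below that of every XX EpiLC library. The same mutant in mESC had 0.0958 TPM of T and 1.56 TPM of Sp5, within the range of the other mutants. Whether other cell types were present and had a part in the levels of the 10 genes was not tested.

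**Figure D4:**
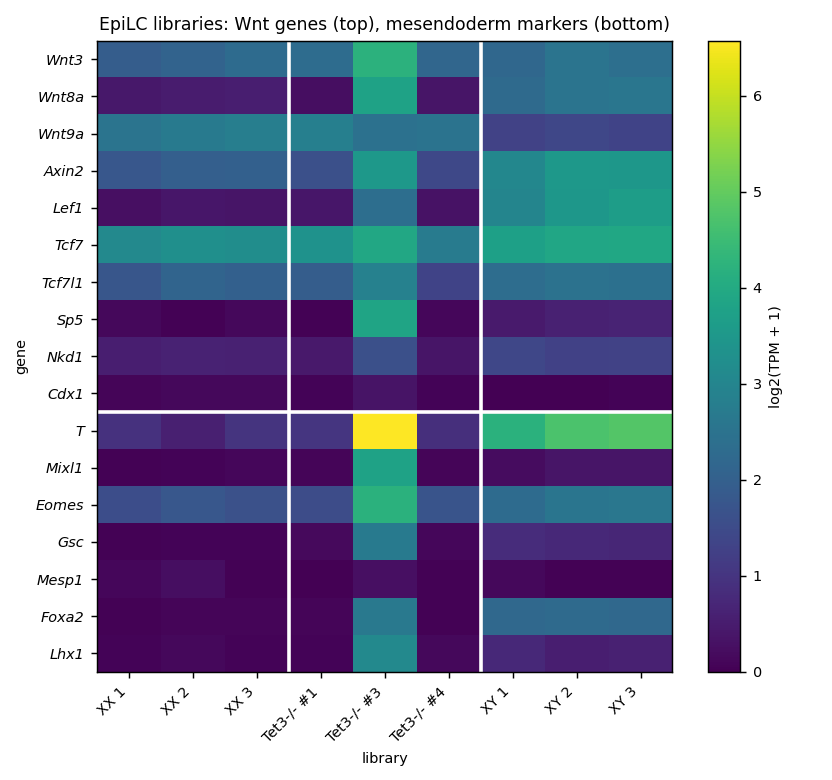
Level of the 10 genes (above the horizontal white line) and of 7 mesendoderm markers (below it) in the 9 EpiLC libraries, coloured by log2(TPM + 1) from dark (0) to bright. The column of mutant #3 is bright for T, Eomes, Mixl1, Sp5 and Wnt8a, which are dark or dim in the other 5 LF2 columns, and the XY columns are bright for T, Lef1 and Axin2.

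Other genes of the pathway were counted from lists by role, which hold the 10 genes too and share some genes with each other. Beside these counts, 19.2% of all tested genes were higher and 12.2% lower in the XX transition as deposited, 41.1% and 9.36% in XY, and 13.6% and 21.5% in Tet3-/-, or 11.1% and 33% without mutant #3. After scaling each share was near 25%. Of 19 Wnt ligand genes, 9 were tested, and none was called lower in any transition. All of the 9 but Wnt5b reached 1 TPM in EpiLC libraries alone, so rises were favoured for them by the filter. Wnt6 and Wnt7b reached it in LF2 EpiLC libraries alone, so a higher level in XX than in XY EpiLC was favoured too. The same limit holds for other list genes that reached 1 TPM in 1 state alone, such as Fzd2 and Fgf8. List genes such as Porcn, Ror1, T, Sp8, Dkk1 and Fgf8 reached it in no XX library, so a lower level in XX than in XY was favoured for them. In XX 6 were higher, in XY 4, and in Tet3-/- 7, or 6 without mutant #3, and after scaling these were 6, 4 and 8. Their median log2 fold changes were 1.67, 0.42 and 1.77, so that in XY both the share and the median were near those of all genes as deposited. After scaling, the XY median was 0.27 where that of all genes was -0.0041, and 26.4% of all genes were higher. The ligands differed in level by line: Wnt6 and Wnt7b were higher in XX than in XY EpiLC, Wnt6 by 3.09 (SE 0.30, limma adjusted p 5.71e-07) and Wnt7b by 2.51 (SE 0.24, limma adjusted p 3.83e-07), while Wnt8a was lower. In all, 4 ligands were higher and 3 lower in XX EpiLC, and 5 and 2 after scaling, where 5.23% and 42% of all genes were so as deposited and 17.2% and 16.6% after scaling. Wnt6 also rose in XX by 3.25 (SE 0.30, limma adjusted p 1.25e-07), and its rise differed from that in XY by 3.09 (SE 0.43, limma adjusted p 7.57e-05).

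**Figure D5:**
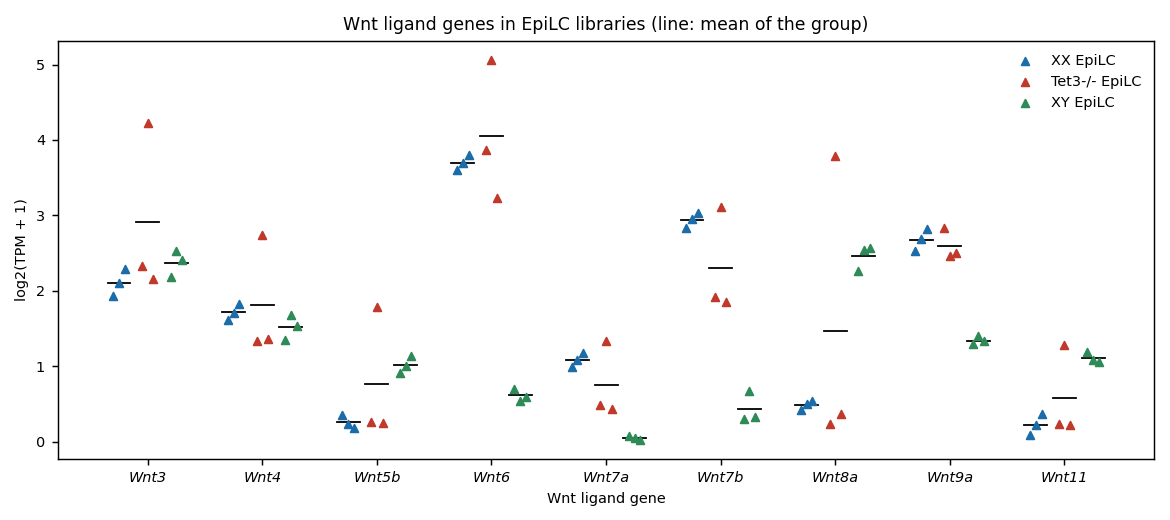
Level of the 9 tested Wnt ligand genes in the 9 EpiLC libraries, as log2(TPM + 1) on the vertical axis; triangles are libraries and short lines are group means. Wnt6, Wnt7b and Wnt9a are higher in XX than in XY libraries, Wnt8a is higher in XY, and the highest Tet3-/- triangle of each gene but Wnt9a is mutant #3.

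Among 15 tested genes of ligand secretion and reception, 7 rose and 1 fell in XX, 12 rose in XY, and 7 rose and 1 fell in Tet3-/-. After scaling 8 rose and 2 fell in XX, 11 and 3 in XY, and 9 and 2 in Tet3-/-, and without mutant #3 as deposited 7 and 3. Fzd2 and Fzd7, which encode Wnt receptors, rose in all 3, Fzd2 by 2.51 (SE 0.18, limma adjusted p 5.08e-09) in XX, by 3.35 (SE 0.18, limma adjusted p 7.88e-11) in XY and by 2.38 (SE 0.17, limma adjusted p 2.54e-09) in Tet3-/-. In EpiLC, 14 of the 15 were lower in XX than in XY as deposited, and 9 lower and 1 higher after scaling. Porcn, which encodes the enzyme that acylates Wnt proteins for secretion, was lower in XX in both states, with -1.61 (SE 0.23, limma adjusted p 7.99e-05) in mESC and -2.17 (SE 0.23, limma adjusted p 1.36e-06) in EpiLC. Porcn did not exceed 0.409 TPM in any XX library. It passed the filter through XY libraries and mutant #3 in EpiLC, and Ror1 through XY EpiLC alone, so lower levels in XX were favoured for both. Of 5 tested R-spondin module genes, 3 rose in XX, 4 in XY and 3 in Tet3-/-, as many as after scaling, and without mutant #3 in Tet3-/- 1 also fell. Lgr4, an R-spondin receptor gene, rose in XX by 3.17 (SE 0.27, limma adjusted p 3.74e-08).

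Of 7 tested extracellular inhibitors, 2 rose and 3 fell in XX and in Tet3-/-, and 3 rose and 2 fell in XY, or 2 and 4 after scaling. Notum, which encodes an enzyme that removes the acyl group from Wnt proteins and is itself a Wnt target, fell in all 3 transitions, in XY with -3.59 (SE 0.45, limma adjusted p 2.52e-06). Sfrp1, a secreted Wnt antagonist gene, fell in XX with -2.25 (SE 0.38, limma adjusted p 0.000154). In the cytoplasmic relay and destruction complex, 1 of 15 rose and 1 fell in XX, 8 rose and 1 fell in XY, and 2 rose and 1 fell in Tet3-/-. After scaling 4 rose and 3 fell in XX, and 3 rose and 3 fell in XY and in Tet3-/-. Without mutant #3, 1 rose and 5 fell in Tet3-/-. Of 11 tested nuclear factors, 2 rose in XX, 6 in XY and 2 in Tet3-/-, and none fell as deposited. After scaling 5 rose and 1 fell in XX, 3 rose in XY, and 3 rose and 1 fell in Tet3-/-, and without mutant #3 as deposited 1 rose and 1 fell. Bcl9l, which encodes a coactivator of beta-catenin, rose in all 3.

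The target genes outside the 10 were counted apart. Of 12 tested, 4 rose and 2 fell in XX, 6 rose and 2 fell in XY, and 5 rose and 2 fell in Tet3-/-. After scaling the counts were 4 and 2, 4 and 4, and 6 and 2. Without mutant #3, 5 rose and 3 fell in Tet3-/-, and the rises of T and Fgf8 were 0.66 and 0.42 in place of 2.54 and 1.89. Myc, Rnf43 and Ccnd2 rose in each genotype and Notum fell in each, so the list did not move in 1 direction. In XX against XY EpiLC 7 were lower and none was higher, where 42% of all genes were lower, and after scaling 6 were lower and 1 higher. The lower genes include T with -3.75 (SE 0.91, limma adjusted p 0.0038) and Fgf8 with -4.06 (SE 0.70, limma adjusted p 0.000269). For T, Fgf8, Sp8 and Dkk1, which passed the filter through no XX library, a lower level in XX was favoured. For the 18 tested of all 20 target genes, members included, the median log2 fold change in XX against XY was -1.08 in mESC and -0.91 in EpiLC, where all genes had -0.19 and -0.58, and after scaling it was -1.03 and -0.37.

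Within genes, the use of annotated transcripts was described without a test. The leading Tcf7 transcript held 80.9% to 84.9% of Tcf7 TPM in the pooled libraries of each group. Of the 8 Lef1 transcripts, the same protein-coding one held the most in XY mESC (46.8%) and XY EpiLC (36.9%), and a transcript annotated as a retained intron held 11.7% and 28.4%. The share of the latter was 5.2% to 16% in the XY mESC libraries and 23.3% to 31.5% in the XY EpiLC libraries, which did not overlap, so part of the Lef1 level in XY EpiLC came from a transcript annotated as not coding. The leading Axin2 transcript held 44.8% to 57.5% of Axin2 TPM over the groups, and a shorter protein-coding one, with a start of its own, held 6.44% in XY mESC and 18.2% in XY EpiLC, with no overlap between the libraries of the groups. The same Wnt9a transcript held 99.7% to 100% of Wnt9a TPM in the EpiLC groups. Splitting reads among overlapping transcripts is an estimate, and Axin2, Lef1, Nkd1, Tcf7 and Tcf7l1 overlap other annotated genes, of which none that was measured exceeded 1.91 TPM. That highest gene, Gm37736, lies on the same strand as Tcf7l1, whose group means in mESC were 1.37 to 2.29 TPM. Gm42449 reached 1.39 TPM on the same strand as Lef1, above the Lef1 level of every LF2 library but EpiLC mutant #3.

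For Axin2, Sp5 and Tcf7l1, the 5 tested genes with the most similar pattern were taken by Pearson's r of log2(TPM + 1) over the 19 libraries, as a description. Libraries of a group share a line and state, so they are not independent points. Axin2 was most like Srxn1 (0.97), Nt5dc3 (0.96), 1190002N15Rik (0.94), Adipor2 (0.94) and Lhpp (0.93). Sp5 was most like Cdx2 (0.94), Ak1 (0.93), Samd9l (0.93), Btla (0.93) and Nkx1-2 (0.92), and the r of Ak1 dropped to 0.79 on scaled TPM. Tcf7l1 was most like Ube3b (0.96), Cers5 (0.96), Arf4 (0.96), Mprip (0.96) and Gnb1 (0.95), with 0.59 to 0.86 on scaled TPM. Among the 10 genes, the highest r was that of Wnt8a and Nkd1 (0.94), followed by Wnt3 with Wnt9a and Axin2 with Sp5 (0.86 each).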

How the data were processed

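Total RNA, stranded and depleted of ribosomal RNA, was sequenced from 19 libraries. The authors deposited TPM per transcript, per the file headers, and the processing notes of the submitters name FastQC 0.11.7, Trimmomatic 0.35, Salmon 1.1.0 and GRCm38, with no role or order. The annotation release is not given in the sources used here. TPM is relative to all transcripts of a library and keeps no depth, so no counting error could be given.

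Transcripts were summed per gene with GENCODE M21: 139357 of 140948 matched by versioned identifier and 495 by identifier alone, and 1096 (0.0454% to 0.215% of TPM) did not match. Genes with at least 1 TPM in at least 3 libraries (14972 of 54119) were fitted as log2(TPM + 1) in 1 limma model of 6 groups with a mean-variance trend, and p-values were adjusted by Benjamini-Hochberg in each of 9 comparisons, with a threshold of 0.05 (R 4.3.3, limma 3.58.1, Python 3.11.15). The code was tested on simulated data. Samples were grouped by the labels. Named genes are the 10 members and, per list and comparison, the up to 3 called genes with the largest change, Tet3, and the 5 genes most like Axin2, Sp5 and Tcf7l1. Other genes named were chosen after their values were seen. The members and lists were chosen with earlier results of these data known. Alternatives were the pseudocount, the filter, the scaling, the trend, the replicate block, the groups in the fit and each library left out. Proteins were not analysed here.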

Additional observations from a re-analysis of the deposited data

Results flagged for a closer look

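The change from mESC to EpiLC differed between XX and XY cells for 3 of the 10 genes, by the interaction in limma, against 16% of all tested genes. The difference of log2 fold changes, XX minus XY, was 1.35 for Wnt9a, 3.50 for Sp5 and 1.91 for Cdx1 (limma adjusted p 0.000128, 0.00943 and 0.0108). Wnt9a was higher in every EpiLC library than in every mESC library of both lines. Sp5 and Cdx1 were lower in all 3 XY EpiLC libraries than in all 3 XY mESC libraries. In XX mESC, Sp5 was already at 0.475 TPM or less, and Cdx1 at 0.0545 and 0.118 TPM in replicates 1 and 3. A fall from such levels is small on the log2(TPM + 1) scale. By mean TPM, XX EpiLC were at 0.354 of XX mESC for Sp5 and 0.0913 for Cdx1, with overlapping libraries. With a pseudocount of 0.1 the Sp5 call was lost (limma adjusted p 0.0708). Sex and line coincide and cannot be told apart.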

How the results depend on the processing

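The count of the 10 genes called moved by over 1.5 times under these settings. With at least 5 TPM in 3 libraries, where 5 of the 10 were tested, it was 4 in the XY transition, 1 in the Tet3-/- transition and 3 for XX against XY EpiLC. With median-of-ratios scaling it was 1 for Tet3-/- against XX EpiLC, 3 for XX against XY EpiLC and 5 for the difference of the XX and XY transitions. The shares of all tested genes called there were 5.46%, 33.8% and 23.7%, against 1.08%, 47.2% and 16% as deposited. Protein-coding rescaling gave 3 for XX against XY EpiLC, where 27.5% of all tested genes were called, and a fit of those groups alone gave 8. Settings chosen after seeing the data left out mutant #3 in EpiLC: out of the shared spread, it was 5 in the XX transition, 1 for Tet3-/- against XX mESC and 6 for the difference of the XX and XY transitions. With scaling and that library out, it was 6 in the Tet3-/- transition, 2 for Tet3-/- against XX EpiLC and 1 for the difference of the Tet3-/- and XX transitions. No share of all tested genes was taken for the 5 TPM filter or the fit of those groups alone. None was taken for the settings chosen after seeing the data, so these counts cannot be read against it. The causes were not tested.

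Leaving out each library of the groups compared in turn gave 2 to 4 in the XX transition, 7 to 10 in XY, 2 to 6 in Tet3-/-, 0 to 0 in both comparisons of Tet3-/- with XX, 4 to 5 for XX against XY mESC, 3 to 5 in EpiLC, 0 to 1 for the Tet3-/- and XX transition difference and 3 to 4 for that of XX and XY. The share of all genes was taken only with mutant #3 in EpiLC left out, so the other counts cannot be read against it.

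Signs turned only for values not called as deposited. Of 41 values called neither as deposited nor under an alternative, 25 changed sign under an alternative. Axin2 in the XX transition, for example, ranged from -0.32 to 0.51. The values that follow are those that were called under an alternative. Tcf7 was -0.0401 in the XY transition and 0.0276 for XX against XY EpiLC after scaling. Tcf7l1 in XX against XY EpiLC was 0.12 after scaling and 0.0297 with protein-coding rescaling. Wnt9a in Tet3-/- against XX EpiLC was 0.0331 after scaling, and 0.36 without mutant #3 as well. Sp5 in the Tet3-/- transition ranged from -1.36 to 0.54 with 1 library left out, and was above 0 without EpiLC mutant #1 or #4 (0.54 and 0.51). The Sp5 difference of the Tet3-/- and XX transitions was -0.73 with a pseudocount of 0.1, -0.0428 after scaling, and -1.16 with scaling and mutant #3 out. With 1 library left out it ranged from -1.20 to 0.706, and without XX mESC replicate 2, mutant #1 mESC or mutant #3 EpiLC it was -0.0852, -0.0041 and -1.20. The Tcf7 difference of the XX and XY transitions ranged from -0.0425 to 0.372, and was below 0 without XX mESC replicate 1 (-0.0187) or XY mESC replicate 3 (-0.0425).

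With the replicate number as a block, 3 genes were called in the XX transition, 9 in that of XY and 3 in that of Tet3-/-, and 5 between XX and XY in mESC and in EpiLC. With the block within genotype, 2, 9 and 2 were called in the transitions, without Tcf7 in XX and Wnt8a in Tet3-/- (limma adjusted p 0.067 and 0.0523). No share of all genes was taken with either block. Same-numbered mESC and EpiLC libraries deviated together with r from -0.05 to 0.30, so the numbers were not taken to pair them.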
